A study of Rattus norvegicus with 10 samples.

Results

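Potassium channel genes were followed across testes of Zucker rats, and the largest changes ran in opposite directions within the same gene family: in 3 of 4 under-developed testes of obese rats the sperm channel gene Kcnu1 was 2.63-fold or more lower, and the related gene Kcnt1 4.35-fold or more higher, than in the mean of their normally developed testes. The genes were taken as all those whose only symbol in the platform annotation begins with Kcn, with the brightest probe set on average for each gene. This gave 87 genes of 18166 tested, from 88 probe sets. They comprised 14 pore subunits of voltage-gated (Kv) channels (Kcna, Kcnb, Kcnc, Kcnd), 10 modifier Kv subunits (Kcnf, Kcng, Kcns, Kcnv), 11 Kcnq and Kcnh pore subunits, 7 calcium-activated, sodium-activated and other Slo or small-conductance pore subunits (Kcnma1, Kcnn, Kcnt, Kcnu1), 15 inward rectifiers (Kcnj), 13 tandem-pore leak channels (Kcnk), 16 auxiliary subunits (Kcnab, Kcne, Kcnip, Kcnmb) and Kcnrg, a regulator that carries the prefix but forms no pore.

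Potassium channels let potassium ions leave or enter a cell down their gradient and so set its membrane potential. Pore subunits form the channel, and auxiliary subunits alter its opening or its traffic. In sperm the principal potassium current runs through Slo3, the product of Kcnu1, a testis channel that opens with alkaline pH and depolarization and hyperpolarizes sperm during capacitation in the mouse. Its relatives are the BK channel of Kcnma1, opened by calcium and voltage, and the sodium-activated channels of Kcnt1 and Kcnt2. Kcna3 is the Kv channel known from lymphocytes and neurons.

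RNA of whole testes was hybridised to 10 rat arrays, 1 per sample. There were 4 arrays of under-developed testes of obese rats, 4 of normally developed testes of obese rats and 2 of normally developed testes of lean rats. All rats were sexually mature, 14 weeks old and labelled with the Zucker fa/fa model, in which the leptin receptor is mutated; the lean rats carry this label and the protocol text for obese animals too, so their genotype was not settled. The labels call the samples biological replicates without saying whether each testis came from another animal, so p-values measure only the spread between these samples. Values are log2 expression values after RMA, the authors' background correction, normalization and summary of probes, and a difference of 1 is a 2-fold change.

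Under-developed replicates 1, 2 and 3 stood apart from the normal testes and replicate 4 did not. Across genes, which are not independent replicates, Pearson's r between pairs of the 6 normal arrays was 0.994 to 0.997. The mean r of an under-developed array with those 6 was 0.856 for replicate 1, 0.946 for replicate 2, 0.731 for replicate 3 and 0.995 for replicate 4. Markers of spermatids, 11 genes of which 0 lay under the array's 25th percentile, averaged −2.62, −0.71, −4.42 and −0.05 log2 from the normal obese mean in under-developed replicates 1 to 4. Sertoli markers (10 genes) differed by 1.28, 1.01, 1.42 and 0.03, and macrophage markers (7 genes) by 2.36, 1.36, 2.25 and −0.05. Without replicate 4, markers that rose and fell were 6 and 1 of 10 for Sertoli cells, 7 and 0 of 7 for macrophages, 4 and 0 of 5 for Leydig cells, 3 and 0 of 3 for endothelium, 2 and 0 of 3 for Schwann cells, 1 and 1 of 3 for B lymphocytes and 0 and 0 of 5 for epididymis. Calls are therefore counted with and without replicate 4, a sample set aside only once its values were known. In whole testes, fewer cells of a type and less RNA per cell cannot be told apart.

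In obese rats, under-developed testes were first compared with normal ones. With all 10 arrays, 0 of the 87 genes passed in limma, where 0.0% of all genes passed. An unadjusted p under 0.05 was reached by 30 Kcn genes, of which 14 were higher and 16 lower (34.5%, against 46.6% of all genes). Without under-developed replicate 4, 20 rose and 20 fell at a limma adjusted p under 0.05, which is 46.0% of the family against 56.0% of all genes (29.6% of all genes rose and 26.4% fell). The family's share of calls thus lay below that of the array, and its median absolute difference was 0.31 log2, against 0.47 over all genes. Many Kcn probe sets were dim: the mean over all arrays lay at or above the 25th percentile of all genes for 58 and at or above the median for 14. With no overlap between under-developed replicates 1 to 3 and the 4 normal obese arrays, 19 Kcn genes were higher and 21 lower (21.8% and 24.1%, against 30.7% and 27.8% of all genes). The balance of directions depended on scaling, with 9 genes higher and 26 lower after centring each array on its median, 9 and 26 after quantile normalization again, 8 and 50 with arrays centred on ribosomal protein genes and 3 and 79 with arrays centred on Sertoli genes. The median difference of all genes, 0.07 log2 as deposited, was −0.07, −0.05, −0.31 and −1.17 under these 4 scalings in turn. Of the genes called as deposited, 3 rises (Kcnt1, Kcnq5 and Kcne1) and all 20 falls passed in the same direction under each of the 5 scalings. The 4 alternatives moved the median gene down, so they put the rises at risk, and the passing of the falls was no separate test. Of the 20 rises, 11 did not pass under median, quantile or ribosomal scaling (Kcnab1, Kcnab3, Kcnd1, Kcnd3, Kcnh2, Kcnh7, Kcnj2, Kcnj5, Kcnk3, Kcnk5 and Kcnq3). On Sertoli genes 16 of the 20 were below 0, and 12 of these passed as lower.

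**Figure D1:**
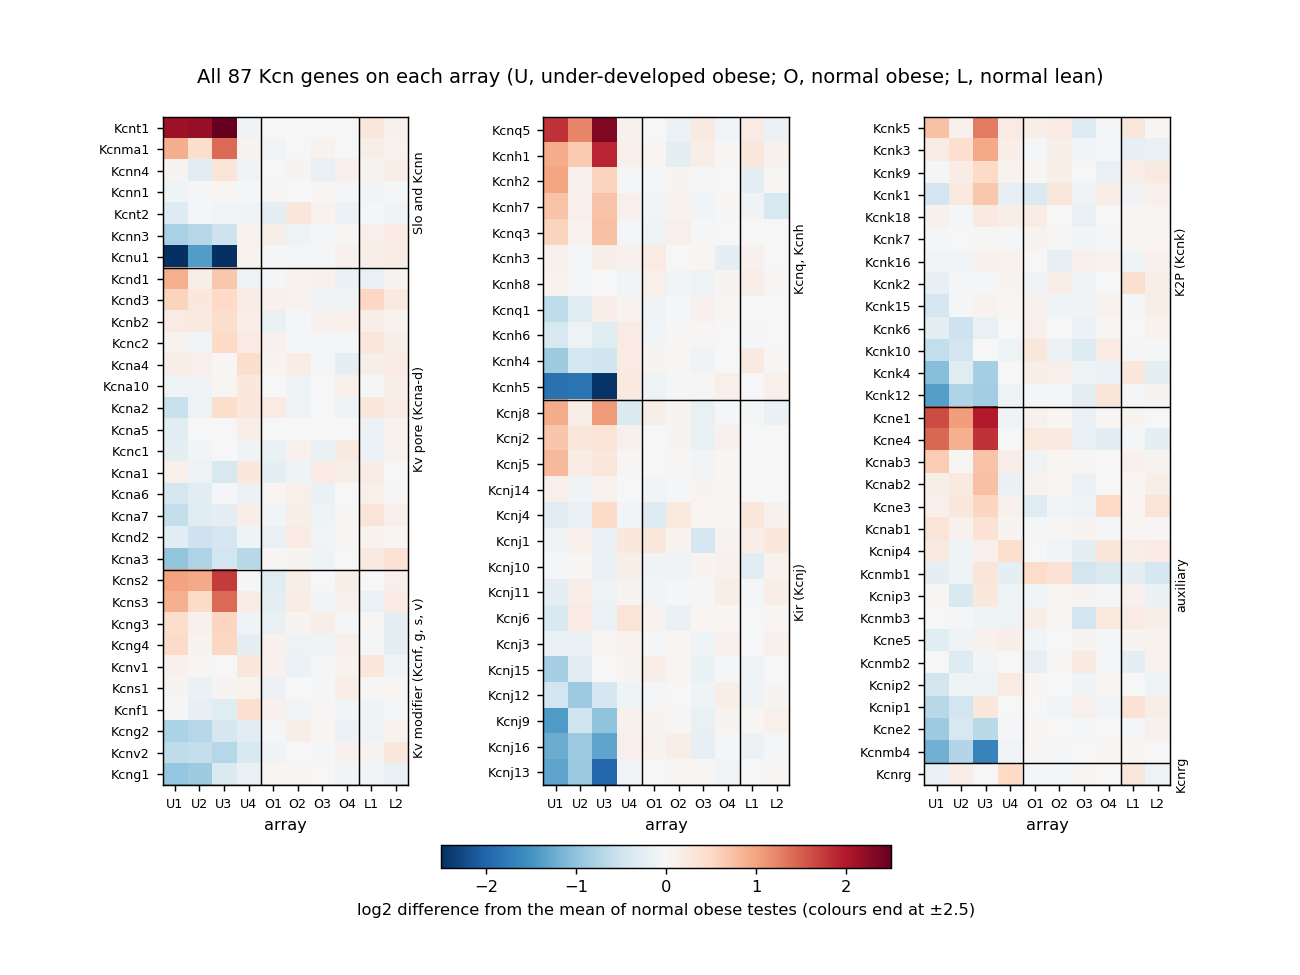
Differences of all 87 Kcn genes from the mean of the normal obese testes (log2, colour), with a row per gene, grouped by class, and a column per array. Under-developed replicates 1 to 3 carry the strong colours, with Kcnt1 and Kcnu1 as extremes, and under-developed replicate 4 stays between −0.70 (Kcna3) and 0.50 (Kcnrg).

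Large changes were few. At least 2-fold above the normal obese mean stood 5, 3, 10 and 0 Kcn genes in under-developed replicates 1 to 4, which is 5.75%, 3.45%, 11.5% and 0.0% of the family, against 15.5%, 7.56%, 19.2% and 0.0385% of all genes. At least 2-fold below it stood 8, 2, 6 and 0, which is 9.2%, 2.3%, 6.9% and 0.0%, against 15.6%, 6.18%, 16.8% and 0.0055% of all genes. Replicates 1, 2 and 3 shared 3 genes of the first kind (Kcnt1, Kcnq5 and Kcne1) and 2 of the second (Kcnu1 and Kcnh5). These few are named because they made up those counts.

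Promoter sequences are shown for 4 members: Kcnt1 and Kcne1, which rose, Kcnj13, which fell, and Kcna3, which was lower on all 4 under-developed arrays. They run from 250 bases before to 50 bases after the start of the gene in RefSeq (build GRCr8), 5′ to 3′ on the strand of the gene, and capitals mark the core TGACG of the cAMP response element (or CGTCA on the other strand) and the core GTTGCC of the X-box bound by RFX factors (or GGCAAC).
Kcnt1 (chr3:29081089-29081388, plus strand): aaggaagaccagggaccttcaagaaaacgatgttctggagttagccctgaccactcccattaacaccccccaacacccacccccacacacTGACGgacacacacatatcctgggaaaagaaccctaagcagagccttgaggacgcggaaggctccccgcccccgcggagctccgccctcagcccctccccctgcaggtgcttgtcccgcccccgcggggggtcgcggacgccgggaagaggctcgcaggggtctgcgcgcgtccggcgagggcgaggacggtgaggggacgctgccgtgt
Kcne1 (chr11:45076984-45077283, minus strand): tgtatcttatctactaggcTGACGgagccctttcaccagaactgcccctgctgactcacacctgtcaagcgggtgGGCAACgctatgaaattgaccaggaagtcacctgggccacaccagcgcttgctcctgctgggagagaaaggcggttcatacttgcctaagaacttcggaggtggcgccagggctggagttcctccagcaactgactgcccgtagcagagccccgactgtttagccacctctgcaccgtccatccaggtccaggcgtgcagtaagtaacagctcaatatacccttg
Kcnj13 (chr9:95518937-95519236, minus strand): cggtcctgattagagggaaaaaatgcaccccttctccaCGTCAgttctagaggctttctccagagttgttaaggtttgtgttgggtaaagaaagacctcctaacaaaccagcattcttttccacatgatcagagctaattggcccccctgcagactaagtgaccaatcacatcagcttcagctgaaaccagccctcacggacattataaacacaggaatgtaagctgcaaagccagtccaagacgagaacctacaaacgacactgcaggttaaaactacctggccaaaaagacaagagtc
Kcna3 (chr2:197320074-197320373, plus strand): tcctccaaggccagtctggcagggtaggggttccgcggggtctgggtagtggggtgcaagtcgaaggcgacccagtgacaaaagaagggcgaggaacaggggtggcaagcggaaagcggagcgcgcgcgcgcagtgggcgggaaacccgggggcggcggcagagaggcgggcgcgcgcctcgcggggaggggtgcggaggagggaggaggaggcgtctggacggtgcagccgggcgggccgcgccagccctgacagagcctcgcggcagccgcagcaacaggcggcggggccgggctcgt

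A promoter of full length was found for 60 of the 87 genes. The core TGACG stood in 12 of these (20%), against 22.0% of 27457 promoters of the same length. It was in 2 of the 13 promoters of genes that fell without replicate 4 and in 6 of the 15 of genes that rose, the printed Kcnt1, Kcne1 and Kcnj13 promoters among them. The printed windows thus hold this core more often than the family does. Kcnh5 fell further than Kcnj13 and its promoter held neither core, and Kcnu1 had no promoter of full length. GTTGCC stood in 6 of 60 (10%), against 12.2% of all promoters. The full element TGACGTCA, which contains the core, was in 0 of 60 and in 1.91% of all. The Kcna3 window held neither core. It was 74.0% G or C with 36 CpG dinucleotides, against a median of 52.3% and 7 over all promoters. Over the Kcn promoters the median was 60.5% and 12.5. Other members reached as much or more, such as Kcnc1 (74.0% and 36) and Kcnmb4 (80.7% and 48).

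Kcnu1, the pore of the sperm Slo3 channel, had the largest fall of the family. Its log2 values were 7.70, 8.85, 5.28 and 10.33 in under-developed replicates 1 to 4, against 10.21, 10.22, 10.20 and 10.36 in normal obese testes and 10.41 and 10.43 in normal lean testes. Under-developed replicates 1 to 3 lay below all 6 normal arrays, and replicate 4 lay within the range of the normal obese arrays. Relative to the normal obese mean the gene was 5.85-fold and 2.63-fold lower in replicates 1 and 2. In replicate 3 the ratio was 31.2-fold, measured against a dim signal, since its value lay under the 25th percentile of gene means (5.70). Values of Kcnh5 and Kcnj16 in replicates 1 to 3, of Kcnj13 in replicate 3 and of Kcnv2 in all 4 under-developed testes were dim by the same measure. Kcnj16 was dim on normal arrays too (5.68, 5.40 and 5.54 in normal obese, 5.45 and 5.54 in normal lean testes), and Kcnv2 on some normal obese arrays. With every array fitted, the difference was −2.21 ± 0.87 log2 (SE, limma adjusted p = 0.0841). Without under-developed replicate 4 it was −2.97 ± 0.67 (limma adjusted p = 5.21e-03), and with all arrays but replicate 3 it was −1.29.

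Germ cell markers moved with Kcnu1 on the same arrays. The summed log2 level of the 11 spermatid markers ran from 86.7 to 134.8 in under-developed testes, against 135.2 to 135.6 in normal obese and 135.1 to 135.5 in normal lean testes, and 10 of the 11 fell without replicate 4. The 9 spermatocyte markers differed by an average of −2.61, −0.69, −3.99 and −0.02 in under-developed replicates 1 to 4, and 9 of 9 fell. The part of cell make-up in the fall of Kcnu1 was not tested. By the smallest root mean square distance of their differences over the 10 arrays, the 5 genes most like Kcnu1 were Heatr9 (0.084 log2), Clec2ml1 (0.094), Stpg1, Mroh4 and Lmntd2 (0.12 each).

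Of the genes that work with sperm channels, Lrrc52, which encodes the gamma subunit of Slo3, fell with Kcnu1. Its difference from the normal obese mean was −1.90 in under-developed replicate 1, −1.16 in replicate 2, −2.66 in replicate 3 and −0.13 in replicate 4 (−1.91 ± 0.29 without replicate 4, SE, limma adjusted p = 6.99e-04). Over sperm ion transport genes, 10 of 14 fell and 2 rose without replicate 4. Catsper1, a pore subunit of the sperm calcium channel, differed by −2.27, −1.09, −3.75 and 0.26, and Atp1a4, the sperm form of the sodium pump, by −2.67, −1.14, −4.94 and −0.03. Pkd2 and Slc8a1, which are active in many somatic cells, were the 2 that rose, and on Sertoli genes Pkd2 stood at −0.32 and Slc8a1 at 0.46. Of 5 sodium pump subunit genes measured, 4 rose and 1 fell. Atp1b2, a beta subunit, had the largest rise (2.36 log2). Of the 4 Slo gamma genes 2 fell, Lrrc52 and Lrrc55 (−0.57 log2), and the mean of Lrrc55 lay under the 25th percentile of gene means. From the normal obese mean, Lrrc55 differed by −0.84, −0.53, −0.33 and −0.22 in under-developed replicates 1 to 4. Normal lean testes overlapped these values, at −0.45 and −0.32. Lrrc26 and Lrrc38 did not pass. Over the whole list of 33 partner genes, 28 were measured, of which 7 rose and 14 fell without replicate 4 and 0 passed with all arrays; as 56.0% of all genes passed without it, the 21 called are not set apart by their number alone. On Sertoli genes 2 of the 7 that rose were below 0.

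The other Slo genes did not follow Kcnu1. Kcnt1, the sodium-activated channel known as Slack, stood at 8.07, 8.12, 9.76 and 5.86 in under-developed replicates 1 to 4, against 5.95, 5.95, 5.97 and 5.94 in normal obese and 6.21 and 6.07 in normal lean testes. Replicates 1 to 3 were far above each normal array, whereas replicate 4 was the lowest of the 10 arrays. The difference was 2.00 ± 0.66 log2 with all arrays (SE, limma adjusted p = 0.0702) and 2.70 ± 0.36, or 6.50-fold, without replicate 4 (limma adjusted p = 3.96e-04). By that value it ranked 143 among 18166 genes from the highest difference down.

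Kcnma1, the BK pore, stood at 7.97, 7.49, 8.47 and 7.12 in under-developed testes, against 6.99, 7.04, 7.14 and 7.07 in normal obese and 7.20 and 7.15 in normal lean testes. Replicates 1 to 3 were again above all normal arrays, by less than for Kcnt1. It rose by 0.92 ± 0.20 log2 without replicate 4 (limma adjusted p = 3.99e-03), a difference that was −0.32 with arrays centred on Sertoli genes. Kcnt2, the second sodium-activated channel gene, stood at 5.23 to 5.52 in under-developed, 5.34 to 5.85 in normal obese and 5.47 to 5.53 in normal lean testes, and its groups overlapped (−0.14 ± 0.14 without replicate 4, SE, limma adjusted p = 0.438). Its mean lay under the 25th percentile of gene means, so its not passing says little. Kcnn3, a small-conductance channel opened by calcium, fell by 0.68 log2 without replicate 4 (limma adjusted p = 8.63e-04), and Kcnn1 and Kcnn4 did not pass.

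**Figure D2:**
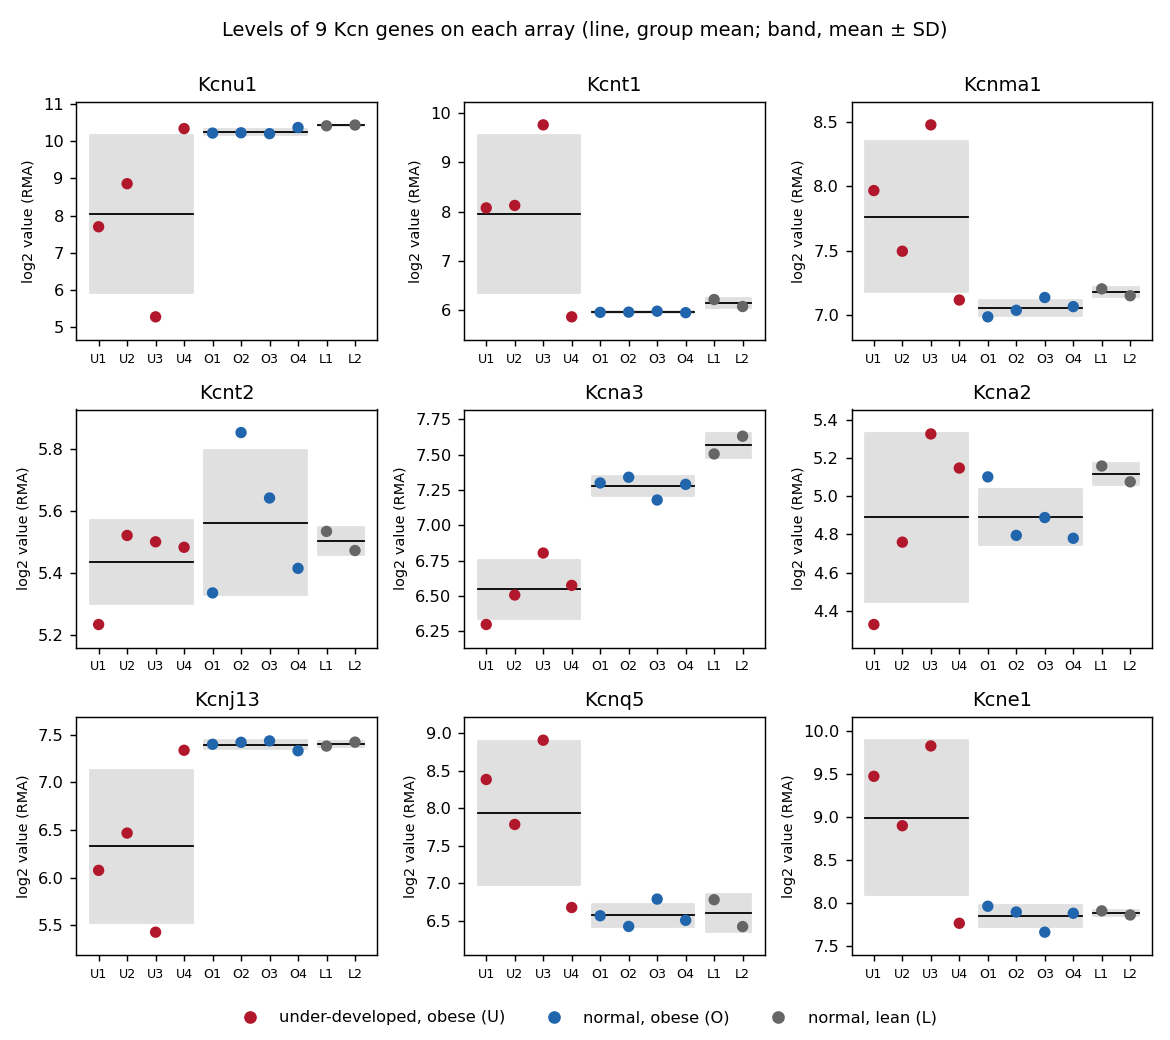
Log2 values (RMA) of 9 Kcn genes on each array, under-developed obese (U), normal obese (O) and normal lean (L), with group means (lines) and SD (bands). Under-developed replicate 4 sits with the normal arrays for Kcnu1, Kcnt1, Kcnma1, Kcnj13, Kcnq5 and Kcne1, and with the other under-developed arrays for Kcna3, where the 4 values run from 6.30 to 6.80 and all normal arrays lie above 7.1.

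Kcna3 was the member in which replicate 4 differed most from the normal testes. Its log2 values were 6.30, 6.51, 6.80 and 6.57 in under-developed replicates 1 to 4, against 7.30, 7.34, 7.18 and 7.29 in normal obese and 7.51 and 7.63 in normal lean testes. The 3 groups did not overlap at any point, with under-developed testes lowest and lean testes highest. Neither step of this order passed: the difference was −0.73 ± 0.12 log2 between under-developed and normal obese testes (SE, limma adjusted p = 0.0702), and −0.29 ± 0.15 between normal obese and normal lean testes (limma adjusted p = 1.0). Kcna3 had the smallest p of all 18166 genes in the first of these comparisons, and it was chosen with that pattern known, so these values are a description. Without replicate 4 the difference was −0.74 ± 0.13 (limma adjusted p = 1.34e-03). Unlike the fall of Kcnu1, its difference was smallest in replicate 3, at −0.47, against −0.98, −0.77 and −0.70 in replicates 1, 2 and 4.

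Markers of T lymphocytes, cells in which Kcna3 is well known, were measured on the same arrays. Their 10 genes differed by an average of 0.30, 0.10, 0.35 and 0.04 log2 in under-developed replicates 1 to 4, and their summed log2 level ran from 55 to 58.2 in under-developed, 54.3 to 55.2 in normal obese and 54.0 to 55.1 in normal lean testes. Without replicate 4, 3 rose and 1 (Lck) fell, and 6 of the 10 lay under the array's 25th percentile. Neuron markers (7 genes) differed by 0.26, 0.06, 0.44 and −0.07, with 2 that rose and 1 that fell. The genes most like Kcna3 over the 10 arrays were Slc29a2, Npepl1, Zfp523, Kcnv2 and Hspa12a, at root mean square distances between 0.188 and 0.20 log2, wider than those of the genes most like Kcnu1.

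Of the 14 Kv pore subunits, 2 rose, 3 fell (Kcna3 among them) and 9 did not pass without replicate 4. In that fit 56.0% of all genes passed. Kcnd2, an A-type channel gene, fell by 0.40 log2 and Kcna7 by 0.37. Kcnd1 and Kcnd3, of the same A-type family, rose by 0.57 and 0.44 as deposited, did not pass under median, quantile or ribosomal scaling, and stood at −0.67 and −0.80 on Sertoli genes. Kcna3 lies next to Kcna2, and Kcna2 next to Kcna10, on chromosome 2 in RefSeq. Neither Kcna2 nor Kcna10 passed (−0.09 ± 0.21 and −0.06 ± 0.10, SE, limma adjusted p = 0.758 and 0.656 without replicate 4). Their means (4.94 and 5.29) lay under the 25th percentile of gene means, so this says little.

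Modifier subunits, which form no channel alone but alter Kv partners, had 2 rises and 3 falls among 10 without replicate 4. Over all genes 56.0% passed. Kcns2 was at 6.56, 6.51, 7.30 and 5.53 in under-developed testes, against 5.25, 5.71, 5.54 and 5.70 in normal obese and 5.57 and 5.68 in normal lean testes, so replicate 4 alone of its group lay among the normal arrays. It rose by 1.24 ± 0.21 log2 without replicate 4 (limma adjusted p = 1.14e-03), and Kcns3 by 0.92. With arrays centred on Sertoli genes both values were below 0 (−0.00026 for Kcns2 and −0.31 for Kcns3). Kcng1, Kcng2 and Kcnv2 fell by 0.73, 0.64 and 0.65. For these last 3 genes all 4 under-developed arrays lay below all normal obese arrays, as in Kcna3: Kcnv2, a silent subunit of the retina, was at 5.08, 5.12, 5.0 and 5.33, against 5.61, 5.72, 5.68 and 5.82 in normal obese and 5.77 and 5.99 in normal lean testes. In all, 7 Kcn genes were higher and 7 lower with no overlap between the under-developed and normal obese arrays (8.05% each), against 7.44% and 10.4% of all genes, or 17.8% in either direction.

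Among Kcnq and Kcnh genes, 5 rose, 3 fell and 3 did not pass without replicate 4, where 56.0% of all genes passed. Kcnq5, a subunit of the M-type current of neurons and smooth muscle, stood at 8.38, 7.78, 8.90 and 6.67 in under-developed testes, against 6.56, 6.42, 6.79 and 6.50 in normal obese and 6.78 and 6.42 in normal lean testes. It rose by 1.79 ± 0.24 log2 without replicate 4 (limma adjusted p = 4.04e-04; 1.37 ± 0.41 and adjusted p = 0.0702 with all arrays). The ether-à-go-go pair went opposite ways. Kcnh5 was at 4.94, 4.97, 4.34 and 7.04 in under-developed testes, against 6.68, 6.77, 6.82 and 6.92 in normal obese and 6.80 and 6.93 in normal lean testes, and fell by 2.05 ± 0.16 without replicate 4 (limma adjusted p = 6.13e-05). Kcnh1 was at 7.57, 7.28, 8.54 and 6.75 in under-developed testes, against 6.68, 6.40, 6.79 and 6.65 in normal obese and 6.92 and 6.73 in normal lean testes. Its rise of 1.17 ± 0.27 log2 without replicate 4 (limma adjusted p = 5.43e-03) was −0.07 with arrays centred on Sertoli genes. Kcnh4 and Kcnh6 fell by 0.61 and 0.28. Kcnh2, the ERG channel of the heart, rose by 0.55, Kcnh7 by 0.52 and Kcnq3 by 0.46 as deposited. None of these 3 passed under median, quantile or ribosomal scaling, and on Sertoli genes they stood at −0.69, −0.72 and −0.78.

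**Figure D3:**
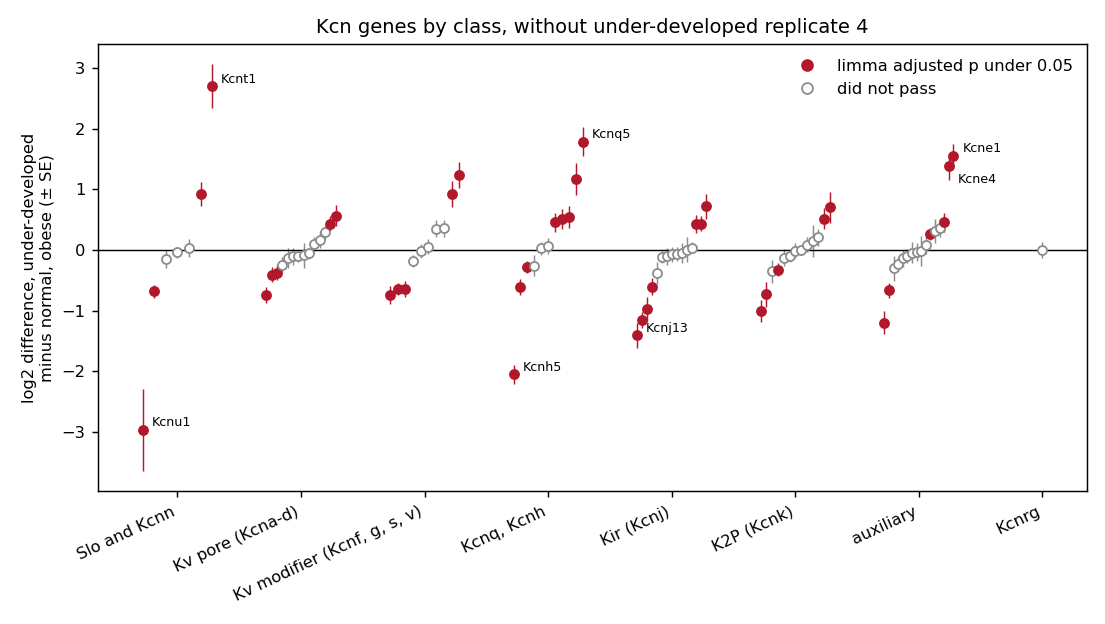
Log2 difference between under-developed and normal testes of obese rats for each Kcn gene (± SE), by class, from the fit without under-developed replicate 4, with filled points for genes at a limma adjusted p under 0.05. Every class with more than 1 gene holds genes on both sides of 0, from −2.97 (Kcnu1) to 2.70 (Kcnt1).

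Inward rectifiers, which carry potassium best near the resting potential, had 3 rises and 4 falls among 15 without replicate 4. The share over all genes was 56.0%. Kcnj13, a channel of epithelia such as the retinal pigment layer, stood at 6.08, 6.47, 5.43 and 7.34 in under-developed testes, against 7.40, 7.42, 7.43 and 7.33 in normal obese and 7.38 and 7.42 in normal lean testes. It fell by 1.41 ± 0.21 log2 without replicate 4 (limma adjusted p = 6.44e-04; −1.07 ± 0.33 and adjusted p = 0.0702 with all arrays). Kcnj16, whose product forms channels with that of Kcnj10 in kidney and glia, fell by 1.15 ± 0.14, and Kcnj10 did not pass (−0.07 ± 0.12, limma adjusted p = 0.666). Kcnj9, a G-protein-gated channel of neurons, fell by 0.97 and Kcnj12 by 0.60.

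ATP-sensitive channels join a Kcnj pore to a sulphonylurea receptor, and their vascular and pancreatic pairs are given in turn. Kcnj8, the vascular pore, rose by 0.72 ± 0.21 log2 without replicate 4 (limma adjusted p = 0.0154), at 0.92, 0.17, 1.06 and −0.36 in under-developed replicates 1 to 4, and its value was −0.52 with arrays centred on Sertoli genes. The call was also lost with arrays centred on ribosomal protein genes (0.34) and when under-developed replicate 1 was left out too (0.62). Its partner Abcc9 differed by 2.13, 1.11, 2.27 and 0.13 and rose by 1.84 ± 0.28 (limma adjusted p = 6.64e-04). Kcnj11, the pancreatic pore, differed by −0.25, 0.17, −0.13 and 0.06, and its partner Abcc8 by 0.39, 0.08, 0.26 and 0.09, and neither passed (limma adjusted p = 0.682 and 0.0822). The means of Kcnj11 (5.17) and Abcc8 lay under the 25th percentile of gene means (5.70). At such dim signals, not passing says little about a contrast with the vascular pair. Pericyte markers, a cell type known for Kcnj8 and Abcc9, differed by an average of 0.85, 0.55, 1.35 and 0.05 over 5 genes, of which 4 rose. Their summed log2 level ran from 33.2 to 39.7 in under-developed, 32.8 to 33.2 in normal obese and 32.7 to 33.3 in normal lean testes, and their part in the rise was not tested.

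Tandem-pore channels, which carry the leak current at rest, had 2 rises and 3 falls among 13 without replicate 4. Of all genes 56.0% passed there. Kcnk12 stood at 7.25, 7.86, 7.76 and 8.51 in under-developed testes, against 8.61, 8.60, 8.38 and 8.93 in normal obese and 8.59 and 8.70 in normal lean testes, and fell by 1.01 ± 0.18 log2 (limma adjusted p = 1.47e-03). Kcnk4, a mechanosensitive leak channel, fell by 0.73 and Kcnk6 by 0.32. Kcnk3 and Kcnk5, acid-sensitive channels, rose by 0.52 and 0.71 as deposited. Neither passed under median, quantile or ribosomal scaling, and on Sertoli genes they stood at −0.72 and −0.53. The call of Kcnk5 (limma adjusted p = 0.044) was also lost when any 1 of 6 further arrays was left out.

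Auxiliary subunits had 4 rises and 2 falls among 16 without replicate 4, where 56.0% of all genes passed. Kcne1, the subunit that slows the Kcnq1 channel, stood at 9.48, 8.90, 9.83 and 7.77 in under-developed testes, against 7.96, 7.90, 7.66 and 7.88 in normal obese and 7.91 and 7.86 in normal lean testes. It rose by 1.55 ± 0.20 log2 without replicate 4 (limma adjusted p = 3.14e-04; 1.14 ± 0.38 and adjusted p = 0.0702 with all arrays), while Kcnq1 itself did not pass (−0.26 ± 0.17, limma adjusted p = 0.237). Kcne4, which inhibits Kcnq1, was at 7.66, 7.12, 8.03 and 6.22 in under-developed testes, against 6.46, 6.45, 6.04 and 5.94 in normal obese and 6.16 and 5.97 in normal lean testes. Its rise of 1.38 ± 0.22 (limma adjusted p = 9.9e-04) shrank to 0.14 with arrays centred on Sertoli genes (limma adjusted p = 0.418). Kcne2 fell by 0.66 log2 without replicate 4.

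No BK beta subunit passed as higher along with the pore. Kcnmb4, the beta subunit best known from neurons, stood at 6.52, 6.99, 6.05 and 7.65 in under-developed testes, against 7.74, 7.67, 7.71 and 7.76 in normal obese and 7.77 and 7.74 in normal lean testes, and it fell by 1.20 ± 0.19 log2 without replicate 4 (limma adjusted p = 8.68e-04), where Kcnma1 rose. Kcnmb1, Kcnmb2 and Kcnmb3 did not pass (−0.02, −0.13 and −0.04 log2), and Kcnmb1 already varied among normal obese testes, with an SD of 0.48 (n = 4). The means of Kcnmb2 (4.71) and Kcnmb3 lay under the 25th percentile of gene means, so their not passing says little. Smooth muscle markers, the cell type of Kcnmb1, differed by an average of 1.17, 0.92, 1.88 and −0.30 over 4 genes in under-developed replicates 1 to 4.

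**Figure D4:**
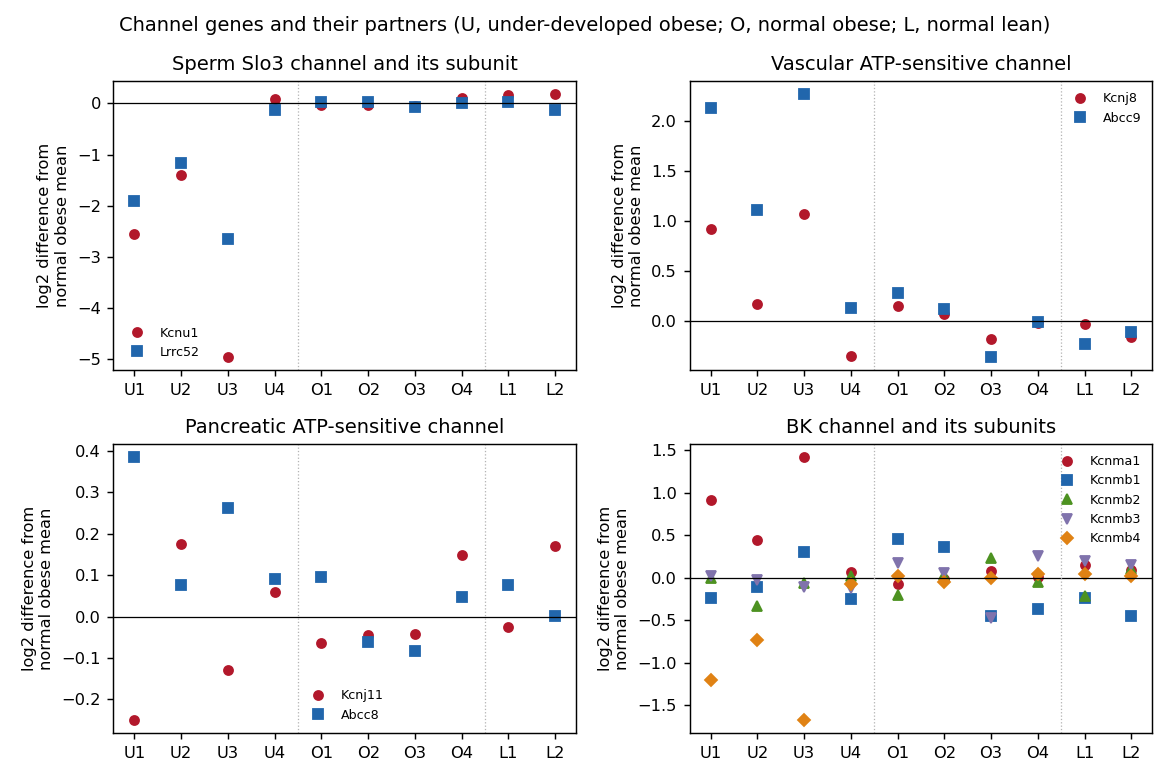
Log2 differences from the normal obese mean on each array for channel genes and their partners, for under-developed obese (U), normal obese (O) and normal lean (L) testes. Kcnu1 and Lrrc52 fall together in under-developed replicates 1 to 3, Abcc9 lies above Kcnj8 there (2.27 and 1.06 in replicate 3), and Kcnma1 and Kcnmb4 lie on opposite sides of 0 in replicates 1 to 3.

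Obesity without under-development was addressed by comparing the normal testes of obese rats with those of lean rats. In limma 0 of 87 Kcn genes passed (0.0% of all genes), and 1 did at an unadjusted p under 0.05 (1.15%, against 0.44% of all genes). That gene was Kcnd3, an A-type channel of heart and neurons, at 6.27, 6.25, 6.08 and 6.08 in normal obese testes, against 6.70 and 6.42 in normal lean testes (−0.39 ± 0.15 log2, SE, limma adjusted p = 1.0, and adjusted p = 0.744 in the fit of these 2 groups alone). Kcnk2, Kcna3, Kcnc2 and Kcnv2 followed in order of p, at −0.28, −0.29, −0.21 and −0.17 log2, all with a limma adjusted p of 1.0. The median difference over the family was −0.04 log2, against 0.01 over all genes, and 3 Kcn genes were higher and 9 lower in obese testes with no overlap between groups (3.45% and 10.3%, against 7.7% and 7.27% of all genes). Kcnu1 was among the 9 (−0.17 ± 1.07 log2, an SE widened by the spread of the under-developed arrays in the shared fit; limma adjusted p = 0.776 in the fit of these 2 groups alone).

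Against normal lean testes, under-developed testes again gave 0 calls of 87 in limma (0.0% of all genes), with 6 genes higher and 14 lower at an unadjusted p under 0.05 (23.0%, against 31.8% of all genes). Without under-developed replicate 4, 16 rose and 19 fell (40.2%, against 48.8% of all genes, where 25.6% rose and 23.2% fell). This comparison shares the under-developed arrays with the one above. Kcnu1 differed by −2.38 ± 1.07 log2 with all arrays (SE, limma adjusted p = 0.16), Kcna3 by −1.02 ± 0.15 (limma adjusted p = 0.154) and Kcnt1 by 1.82 ± 0.81 (limma adjusted p = 0.158). Kcnd3 differed by −0.01 log2 from lean testes, where it had differed by 0.37 from normal obese testes.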

How the data were processed

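The 10 arrays were analysed from the log2 expression values that the authors deposited, 1 per probe set and array; per the submitters' processing notes they were made with RMA, whose settings, version and build are not given in the sources used here. No scanner file, scan date or slide was used. Genes were named from 18511 probe sets with 1 symbol in the platform annotation (575 carried several); 18394 were matched by gene number to RefSeq symbols (assembly GRCr8), as were all 87 Kcn genes. The brightest of several probe sets was kept (1 Kcn gene, Kcnk6, had more than 1).

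Groups came from sample titles. The test was limma 3.58.1 (lmFit and eBayes, R 4.3.3), with the 3 groups' means estimated together over 10 arrays, Benjamini-Hochberg adjustment over 18166 genes and a threshold of 0.05, after a check on simulated data. Python 3.11.15, numpy 2.4.6, pandas 2.3.3 and matplotlib 3.10.9 made summaries and plots. Members, classes, partner and marker lists were chosen with earlier results of these data known. Named were Kcna3, Kcnu1, the 10 largest differences in each direction, the 3 brightest genes per class, the 5 smallest p against lean testes and members among the 20 smallest p over all genes; Lrrc52 and other partners with large differences were added, and genes named outside this rule were chosen after their values were seen, which includes all other members given as having passed. Alternatives covered scaling, offset, filters, probe sets, moderation, array weights, groups fitted, the replicate number as a block and leaving out arrays; those combining a scaling or a further array with the removal of replicate 4 were added after seeing the data.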

Additional observations from a re-analysis of the deposited data

Results flagged for a closer look

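Of 66 groups of 4 arrays examined for the 33 named genes, 3 held an array far from the other 3 (by the gap to its nearest neighbour over the range), and chance gives about 1 in 20. All were normal obese arrays. Kcnu1 stood at 10.36 in replicate 4, the highest of that group. Kcnc2 stood at 5.2 in replicate 1 and Kcnk3 at 6.77 in replicate 2, each the highest of its group. These gaps are small beside the fall of Kcnu1 in under-developed replicates 1 to 3.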

How the results depend on the processing

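For under-developed against normal obese testes, the 0 calls of all arrays became 68 with arrays centred on Sertoli genes and 40 with array weights, and ranged from 0 to 40 when each array was left out, with 40 without under-developed replicate 4. Against lean testes the 0 calls became 42 with array weights and 21 with the replicate block, and ranged from 0 to 35 over arrays left out. Same-numbered arrays did not all deviate together (r = 0.08, 0.01, 0.02 and 0.26 for under-developed and normal obese pairs, 0.14 and −0.06 for normal obese and lean pairs), so the numbers were not read as pairs. The replicate block gave 0 calls for under-developed against normal obese and for obese against lean testes, where every other alternative run and every array left out also gave 0. Without replicate 4, the 20 rises became 9 after median centring, 9 after quantile normalization, 8 on ribosomal protein genes and 3 on Sertoli genes, and ranged from 11 to 24 over further arrays left out (11 without normal obese replicate 1, 12 without normal obese replicate 3 or under-developed 1, 13 without normal obese replicate 4 or under-developed 3). The 20 falls became 50 on ribosomal protein genes and 79 on Sertoli genes, and ranged from 16 to 24. Centring on Sertoli genes moves every gene by the same amount (−0.94 log2 with all arrays), so 38 of the 42 Kcn genes above 0 with all arrays came out below 0. Among the genes with the largest differences these were Kcnj8 (−0.49), Kcnk5 (−0.36), Kcnma1 (−0.23), Kcns3 (−0.20), Kcnh1 (−0.030) and Kcns2 (−0.013). Without replicate 4 their values were −0.52, −0.53, −0.32, −0.31, −0.070 and −0.00026 in the same order, and 16 of the 20 rises were below 0. Sertoli genes themselves differed between the groups, so that scaling gives differences relative to them; other causes were not tested. The number of arrays and the dimness of many Kcn probe sets limit the precision.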

Other observations

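Several Kcn genes lie side by side in RefSeq, with no other protein-coding gene between their starts. Values of neighbours are given without under-developed replicate 4. On chromosome 10, Kcnj16 fell by 1.15 log2 and its neighbour Kcnj2 rose by 0.44 (limma adjusted p = 2.14e-04 and 0.0167). The mean of Kcnj16 over all arrays (5.24) lay under the 25th percentile of gene means. The rise of Kcnj2 did not pass under median, quantile or ribosomal scaling, and on Sertoli genes it stood at −0.80. On chromosome 13, Kcnj9 fell by 0.97 and Kcnj10 was at −0.07, which did not pass. On chromosome 15, Kcnk5 was at 0.71 and Kcnk16 at −0.01, and on chromosome 8 Kcnj5 was at 0.43 and Kcnj1 at −0.05. Kcnk5 and Kcnj5 likewise did not pass under those 3 scalings, and stood at −0.53 and −0.81 on Sertoli genes. The chromosome 4 cluster of Kcna5, Kcna1 and Kcna6 had no call (−0.10, −0.14 and −0.24 log2). The means of Kcnj10, Kcnj5, Kcnj1, Kcna5, Kcna1 and Kcna6 also lay under the 25th percentile of gene means. For genes this dim, the lack of a call says little. Differences between neighbours were not tested.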
